A study of Mus musculus with 6 samples.

Results

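The enterocyte genes that take up dietary fat and pack it into chylomicrons were examined in duodenal epithelium of wild-type (WT) and *Esrra*-/- mice. The set holds 48 genes, chosen by symbol for a role in fatty acid and cholesterol uptake, triglyceride resynthesis, lipid droplets or lipoprotein assembly, and all 48 had a row among the 22611 genes measured. The rule of choice used gene function and no expression value, but it was written with earlier results of these data known. *Esrra* encodes estrogen-related receptor alpha, an orphan nuclear receptor. The *Esrra*-/- mice carried a germline null allele, so the gene was lost in every tissue and not in the epithelium alone. The controls were WT littermates, and both genotypes received a high-fat diet for approximately 8 weeks. The epithelium was released from the first portion of the small intestine with EDTA, and 1 RNA-seq library was made per mouse, 3 for each genotype. The breeding described for the colony included a *Villin-Cre*ERT2 transgene and a floxed *Esrra* allele, and whether these 6 mice carried them is not given in the sources used here, nor are their ages.

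Fat that reaches the duodenum is split by lipases into fatty acids and monoacylglycerol, which enter the enterocyte and are joined again into triglyceride at the endoplasmic reticulum. The triglyceride is either loaded onto apolipoprotein B by the microsomal triglyceride transfer protein and exported as a chylomicron, or held for a time in cytosolic lipid droplets and released by lipases. Cholesterol follows a parallel route, with uptake, pumping back to the lumen and esterification competing for it. The proximal small intestine is the main site of this traffic.

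Levels are in FPKM, the fragments on a gene scaled to transcript length and to the mapped fragments of a library, so that genes can be compared with each other. Log2 fold changes are *Esrra*-/- over WT on the log2(FPKM + 0.1) scale, which understates changes of genes with low values. Calls of higher or lower needed a size of the log2 fold change over 0.58 together with an unadjusted p under 0.05 from limma, a linear model fitted across all 10596 genes with a mean above 1 FPKM. Adjusted p-values are by Benjamini-Hochberg over those genes. Of the 48 genes, 47 passed this filter. *Apoa5* did not, with a mean of 0.378 FPKM over the 6 libraries, and *Fabp6* passed only through 1 WT library.

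The targeted gene, on chromosome 19 of mm9 from 6985467 to 6996303, was expressed at 49.4, 73.5 and 104 FPKM in the WT libraries and at 10.4, 9.42 and 8.72 FPKM in the *Esrra*-/- libraries. Its log2 fold change was -2.92 (standard error, SE, 0.26, adjusted p = 0.0215 by limma), with no overlap between the genotypes. The library of replicate 3 in each genotype stood apart. The summed level of 4 Y-linked genes (*Ddx3y*, *Eif2s3y*, *Kdm5d* and *Uty*) was 27.3 to 46.7 FPKM in replicates 1 and 2 of both genotypes, 0.0487 FPKM in WT replicate 3 and 0.222 FPKM in *Esrra*-/- replicate 3. The methods state that male and female mice were used, and the labels give no sex. The calls and signs of the set and the medians of its groups are therefore also given without these 2 libraries.

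Chylomicron genes were among the most abundant transcripts of this epithelium. Ranked by mean FPKM over the 6 libraries, *Apoa4*, an apolipoprotein secreted with chylomicrons, was 5th of all genes at 18071 FPKM. *Fabp1*, the liver-type fatty acid binding protein that also carries fatty acids in the enterocyte cytosol, was 11th at 12540 FPKM, and *Apoa1*, the main protein of HDL, was 12th at 9569 FPKM. *Fabp2*, the intestinal fatty acid binding protein, and *Apoc2*, the activator of lipoprotein lipase, were 15th and 16th at 7054 and 6347 FPKM. These 5 genes held 81.7% to 83.9% of the summed FPKM of the 48 genes in every library. At the other end, 8 of the 48 genes had a mean under 3 FPKM, among them *Gpam*, *Lpin1*, *Mgll* and *Soat1*, while 25 had a mean above 100 FPKM.

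**Figure D1:**
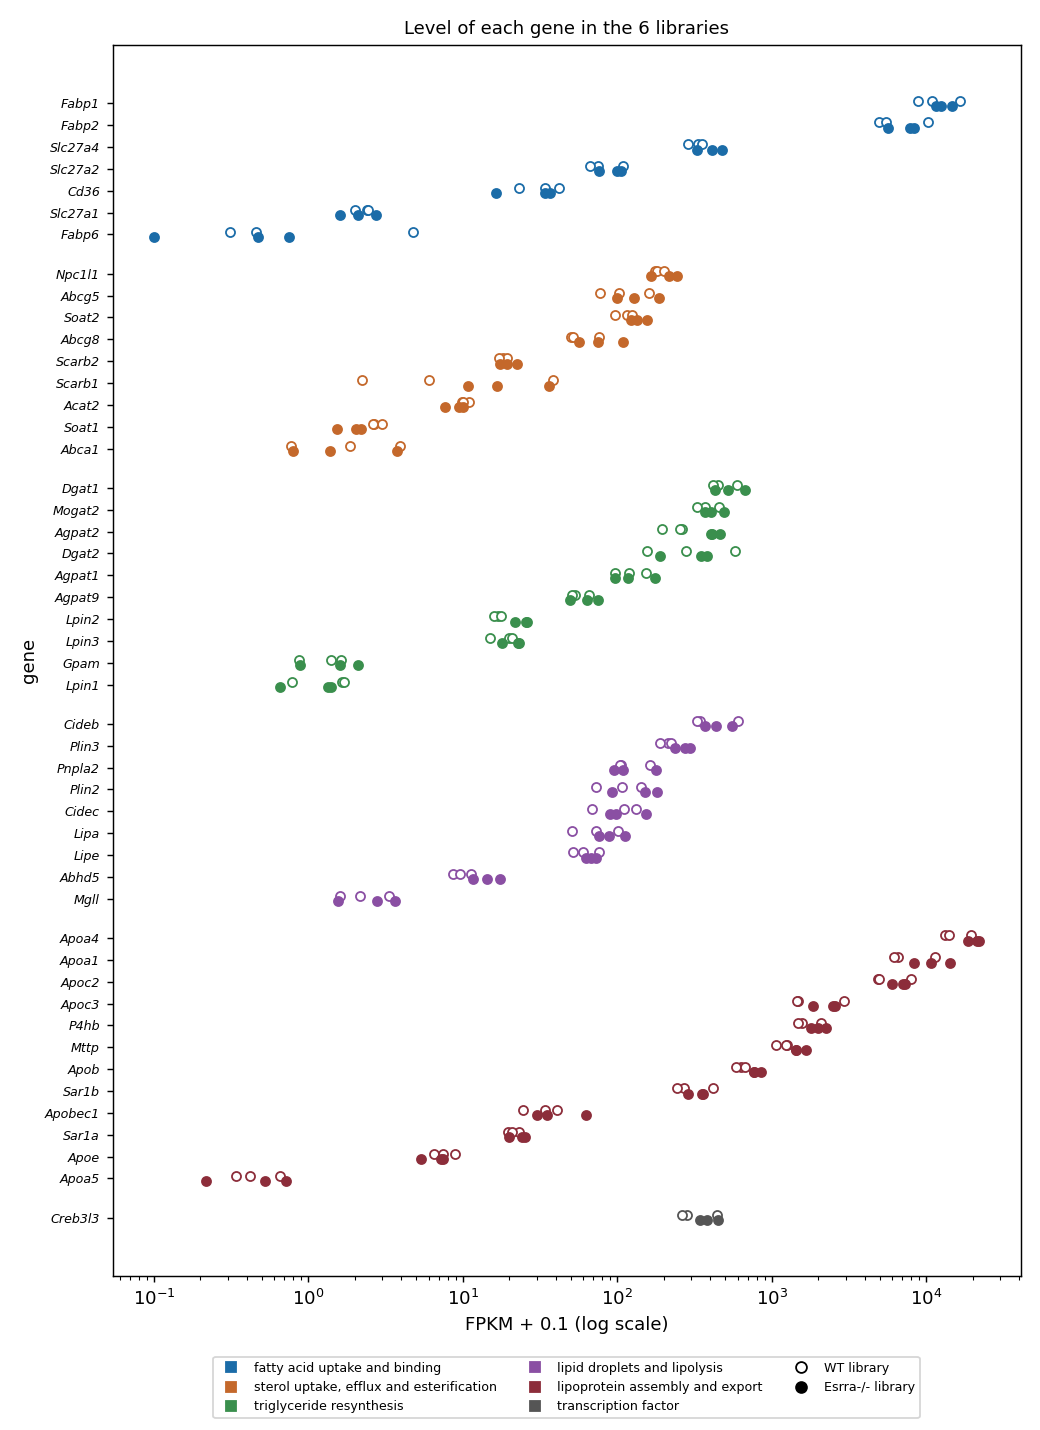
FPKM + 0.1 on a log axis for each of the 48 genes, ordered by role and by mean level, with 1 open point per WT library and 1 filled point per *Esrra*-/- library. Levels span from *Apoa5* and *Fabp6*, near or under 1 FPKM in most libraries, to *Apoa4* at a mean of 18071 FPKM, and the points of the genotypes overlap for most genes.

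Genes of the set that lie side by side on a chromosome had like levels in some cases and far apart levels in others. *Apoa1*, *Apoc3*, *Apoa4* and *Apoa5* lie within 43.3 kb on chromosome 9 of mm9 and had means of 9569, 2126, 18071 and 0.378 FPKM. *Apoc2* and *Apoe*, 14.7 kb apart on chromosome 7, had means of 6347 and 7.05 FPKM. *Dgat2* and *Mogat2*, the acyltransferases of the monoacylglycerol route, lie 36.4 kb apart on chromosome 7 and had means of 322 and 401 FPKM. *Abcg5* and *Abcg8*, which together form the pump that returns sterols to the lumen, are transcribed away from each other on chromosome 17, from RefSeq starts with 109 bases between them on GRCm38.p6. Their gene models overlap in the mm9 annotation, and the library kit does not mark strand, so reads in an exon shared by both could not be told apart. Whether the overlap holds exons of both genes was not checked.

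Loss of *Esrra* left most of these genes within the spread between mice. None of the 47 genes was called lower, against 3.28% of all genes tested, and 1 was called higher (2.13%), against 1.35% of all genes tested. An unadjusted p under 0.05, whatever the fold, was reached by 4 of the 47 genes (8.51%) and by 10.8% of all genes tested. The 4 genes were *Agpat2*, *Lpin2*, *Abhd5* and *Soat1*. Over 47 genes these counts were near the background. No gene of the set had an adjusted p under 0.05, a level that 4 of the 10596 genes reached.

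The signs of the small differences were uneven. The log2 fold change was positive for 38 of the 47 genes (80.9%) and for 54.3% of all genes tested, and its median was 0.15 in the set and 0.03 over all genes tested. Under quantile normalization these medians were 0.27 and 0.03. Without WT replicate 3 the median of the set was 0.38, and without WT replicate 2 it was 0.080. Without both libraries lacking Y-linked transcripts it was 0.30, with 39 of 47 genes positive. Every *Esrra*-/- library lay above every WT library for 6 genes (12.8%), against 8.45% of all genes tested. The reverse held for 1 gene (2.13%), against 9.14% of all genes tested. Together the 48 genes took 6.71%, 5.81% and 7.83% of the summed FPKM in the WT libraries and 9.70%, 8.55% and 8.70% in the *Esrra*-/- libraries, a share set mainly by the 5 most abundant genes.

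**Figure D2:**
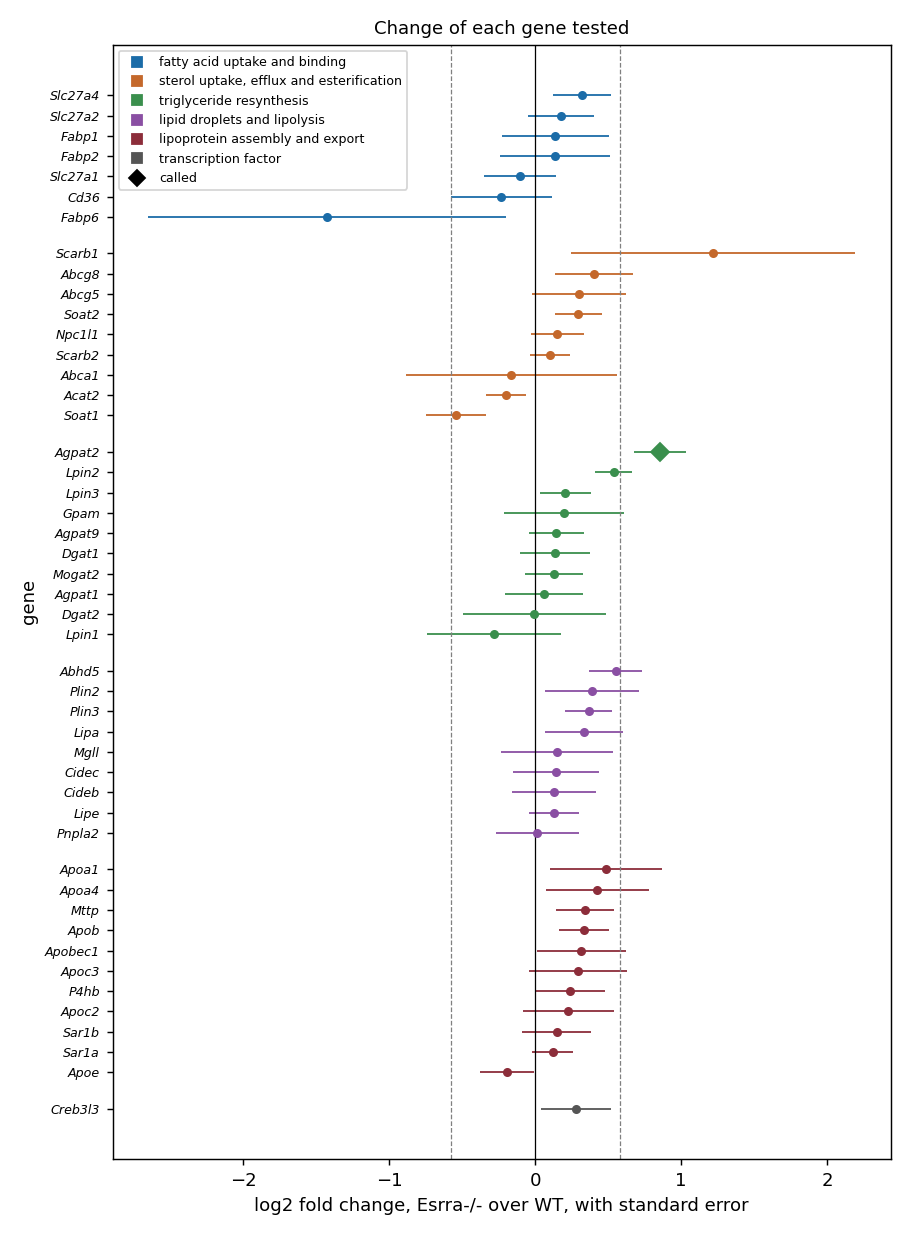
Log2 fold change, *Esrra*-/- over WT, of the 47 genes tested, grouped by role, with bars of 1 standard error from limma. *Agpat2* at 0.85 lies past the limit of 0.58 with the call made, *Scarb1* at 1.22 and *Fabp6* at -1.43 carry standard errors of 0.97 and 1.23, and the remaining 44 genes lie within the limit on either side.

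Triglyceride resynthesis held the only gene called higher. *Agpat2* encodes an acyltransferase of the endoplasmic reticulum that turns lysophosphatidic acid into phosphatidic acid, and its loss causes lipodystrophy. It lies on chromosome 2 of mm9 from 26448577 to 26459937. It was expressed at 263, 195 and 253 FPKM in WT and at 460, 406 and 409 FPKM in *Esrra*-/-. All 3 *Esrra*-/- libraries were above all 3 WT libraries, with means of 237 ± 36.5 and 425 ± 30.4 FPKM (SD, n = 3 each), a ratio of 1.79. The log2 fold change was 0.85 (SE 0.18), with a limma adjusted p of 0.238. Over the 15 alternatives the log2 fold change lay between 0.72 and 0.93 and the call was made in each, with adjusted p-values from 0.0749 to 0.760.

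Downstream of *Agpat2*, the lipins remove the phosphate to give diacylglycerol. *Lpin2* was expressed at 16.7, 15.8 and 17.6 FPKM in WT and at 21.6, 25.6 and 26.0 FPKM in *Esrra*-/-. Its libraries did not overlap either, and the log2 fold change of 0.54 (SE 0.13, adjusted p = 0.274 by limma) fell short of the fold limit, which it passed without *Esrra*-/- replicate 1. *Lpin3* had 19.8, 14.9 and 20.7 FPKM in the WT mice and 22.8, 17.9 and 23.1 FPKM in *Esrra*-/-, which overlapped. *Lpin1* was the least expressed of the 3 at 1.28 ± 0.515 and 1.03 ± 0.418 FPKM (SD, n = 3 each). Among the 3 lipins, then, only *Lpin2* separated the genotypes, and a difference between lipins was not tested.

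The other enzymes of resynthesis did not separate the genotypes. *Mogat2*, which starts the monoacylglycerol route, had means of 383 ± 64.4 FPKM for WT and 419 ± 61.4 FPKM for *Esrra*-/- (SD, n = 3 each). *Dgat1*, which adds the last acyl chain, had 488 ± 97.9 and 538 ± 121 FPKM. *Dgat2*, which catalyses the same step, was the most variable of the abundant enzymes, at 279, 155 and 581 FPKM in WT and 380, 188 and 347 FPKM in *Esrra*-/-, so that its libraries differed more within a genotype than between genotypes. The glycerol-3-phosphate acyltransferases *Agpat9*, also known as *Gpat3*, and *Gpam* had log2 fold changes of 0.14 and 0.20, and *Agpat1*, the paralog of *Agpat2*, had 0.06. Of the 10 genes of this step, 8 had a positive log2 fold change. The median was 0.14. It was 0.046 when *Esrra*-/- replicate 3 was left out, 0.30 when *Esrra*-/- replicate 2 was left out and 0.19 without both libraries lacking Y-linked transcripts.

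The base composition upstream of these genes was read from RefSeq promoters on GRCm38.p6, which run from 250 bases before to 50 bases after each start and matched 42 of the 48 genes. The 4 stretches below end at a transcription start or lie near one and are shown because they belong to the called gene, to both genes with an estrogen-related receptor half-site, and to the divergent sterol pump pair. Capitals mark AAGGTCA, the core of the site that estrogen-related receptors bind, which reads TGACCTT on the opposite strand.
*Agpat2*, chr2:26604418-26604537, minus strand, the 120 bases before the start: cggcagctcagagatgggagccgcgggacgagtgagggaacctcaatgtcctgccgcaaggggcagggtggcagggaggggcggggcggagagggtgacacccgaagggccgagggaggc
*Abhd5*, chr9:122351496-122351615, plus strand, the 120 bases before the start: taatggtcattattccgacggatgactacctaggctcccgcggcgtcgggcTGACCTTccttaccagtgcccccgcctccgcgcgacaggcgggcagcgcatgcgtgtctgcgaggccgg
*Slc27a2*, chr2:126552784-126552843, plus strand, 60 bases that end 181 bases before the start: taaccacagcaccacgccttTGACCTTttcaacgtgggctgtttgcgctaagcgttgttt
*Abcg5* and *Abcg8*, chr17:84683012-84683120, plus strand, the 109 bases between the starts: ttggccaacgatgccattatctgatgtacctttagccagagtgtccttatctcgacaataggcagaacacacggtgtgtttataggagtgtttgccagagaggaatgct

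The half-site was found on either strand in 2 of the 42 genes, at 69 bases before the start of *Abhd5* and 220 bases before that of *Slc27a2*, that is, in 2 of their 57 promoters (3.51%) and in 4.72% of all 32851 promoters. The longer form TCAAGGTCA was found in none of the 42 and in 0.423% of all promoters. TGACGTGG, a cyclic AMP response element-like motif bound by CREB3 family factors, was found in 1 promoter, of *Fabp6* (1.75% of the 57), and in 0.676% of all promoters. CAAAGTCCA, the HNF4-type motif, and AGGTCA repeated in 1 direction with 1 or 4 bases between, the forms bound by PPAR and LXR with their partner RXR, were found in none of the 42 and in 0.475%, 0.0396% and 0.0152% of all promoters. A match is a description of the letters in this window, and binding was not measured here.

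Lipid droplet and lipolysis genes had small differences, and none was called. All 9 had a positive log2 fold change, although that of *Pnpla2* was negative under quantile normalization, median-ratio scaling and 4 other of the 15 alternatives. The median was 0.15, and it was 0.087 without WT replicate 2, with 6 of 9 genes positive, and 0.42 without WT replicate 3. Under quantile normalization it was 0.27. Leaving out 1 library also turned the sign of *Cideb*, *Cidec* or *Mgll* in some fits. *Abhd5* encodes CGI-58, the coactivator of the triglyceride lipase encoded by *Pnpla2*, and was expressed at 8.48, 9.42 and 11.2 FPKM in WT and at 17.3, 14.2 and 11.6 FPKM in *Esrra*-/-. The libraries did not overlap, though the lowest *Esrra*-/- value and the highest WT value, both of replicate 3, were close. Its log2 fold change was 0.55 (SE 0.18, adjusted p = 0.378 by limma), under the fold limit.

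*Plin3*, a droplet coat protein that binds nascent droplets, had 213, 190 and 222 FPKM in the WT mice and 295, 236 and 276 FPKM in *Esrra*-/-. The libraries did not overlap, and the log2 fold change was 0.37 (SE 0.16, adjusted p = 0.474 by limma). *Plin2*, the coat protein of cytosolic droplets, had 108, 72.6 and 142 FPKM in the WT mice and 150, 181 and 91.8 FPKM in *Esrra*-/-. In *Plin2* the genotypes overlapped, with replicate 3 the highest WT value and the lowest *Esrra*-/- value. *Cideb*, a droplet protein that also acts in lipoprotein lipidation, and *Cidec*, which fuses droplets, had log2 fold changes of 0.13 and 0.14. *Pnpla2*, the adipose triglyceride lipase, *Lipe*, the hormone-sensitive lipase, *Mgll*, the monoacylglycerol lipase, and *Lipa*, the lysosomal acid lipase, had log2 fold changes of 0.01, 0.13, 0.15 and 0.33, each with overlapping genotypes.

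No lipoprotein assembly or export gene passed the test. The median log2 fold change of this group was 0.29, with 10 of the 11 genes tested positive, and it ranged from 0.12 without WT replicate 2 to 0.39 without WT replicate 3. It was 0.40 without both libraries lacking Y-linked transcripts. *Mttp* encodes the transfer protein that loads lipid onto apolipoprotein B, and had 1257, 1063 and 1239 FPKM in the WT mice and 1656, 1427 and 1429 FPKM in *Esrra*-/-. Its substrate *Apob*, the structural protein of the chylomicron, had 634, 585 and 672 FPKM in the WT mice and 853, 761 and 769 FPKM in *Esrra*-/-. In both genes every *Esrra*-/- library was above every WT library, and neither passed the test, with log2 fold changes of 0.34 (SE 0.20) and 0.33 (SE 0.17) and limma adjusted p-values of 0.574 and 0.533.

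*P4hb*, the protein disulfide isomerase that is the other subunit of the transfer protein complex, had means of 1713 ± 328 FPKM for WT and 2010 ± 234 FPKM for *Esrra*-/- (SD, n = 3 each), with overlap. *Apobec1*, which edits *Apob* mRNA to give the short intestinal form, had 33.0 ± 8.13 and 42.5 ± 17.7 FPKM. The apolipoproteins other than *Apob* overlapped as well. *Apoa4* had 13121, 13965 and 19576 FPKM in the WT mice and 22014, 18578 and 21173 FPKM in *Esrra*-/-, where WT replicate 3 alone reached into the *Esrra*-/- range.

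*Apoa1* had 6568, 6198 and 11405 FPKM in the WT mice and 10695, 8370 and 14176 FPKM in *Esrra*-/-, with replicate 3 the highest in both genotypes. *Apoc3*, an inhibitor of lipoprotein clearance, and *Apoc2* had log2 fold changes of 0.29 and 0.23. *Apoe*, the ligand for remnant uptake, was the only gene of the group with a negative value, -0.19, from 7.52 ± 1.21 to 6.58 ± 1.15 FPKM (SD, n = 3 each). *Apoa5* stayed between 0.117 and 0.613 FPKM in all 6 libraries and was not tested. *Sar1b*, the GTPase whose mutation causes chylomicron retention disease, had 268, 242 and 415 FPKM in the WT mice and 353, 289 and 359 FPKM in *Esrra*-/-, and its paralog *Sar1a* had a log2 fold change of 0.12. *Creb3l3*, a membrane-bound transcription factor of liver and intestine that activates apolipoprotein genes, had 330 ± 99.5 and 391 ± 52.2 FPKM with a log2 fold change of 0.28 (SE 0.24, adjusted p = 0.707 by limma). That value was 0.13 without WT replicate 2, 0.51 without WT replicate 3 and 0.41 without both libraries lacking Y-linked transcripts.

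**Figure D3:**
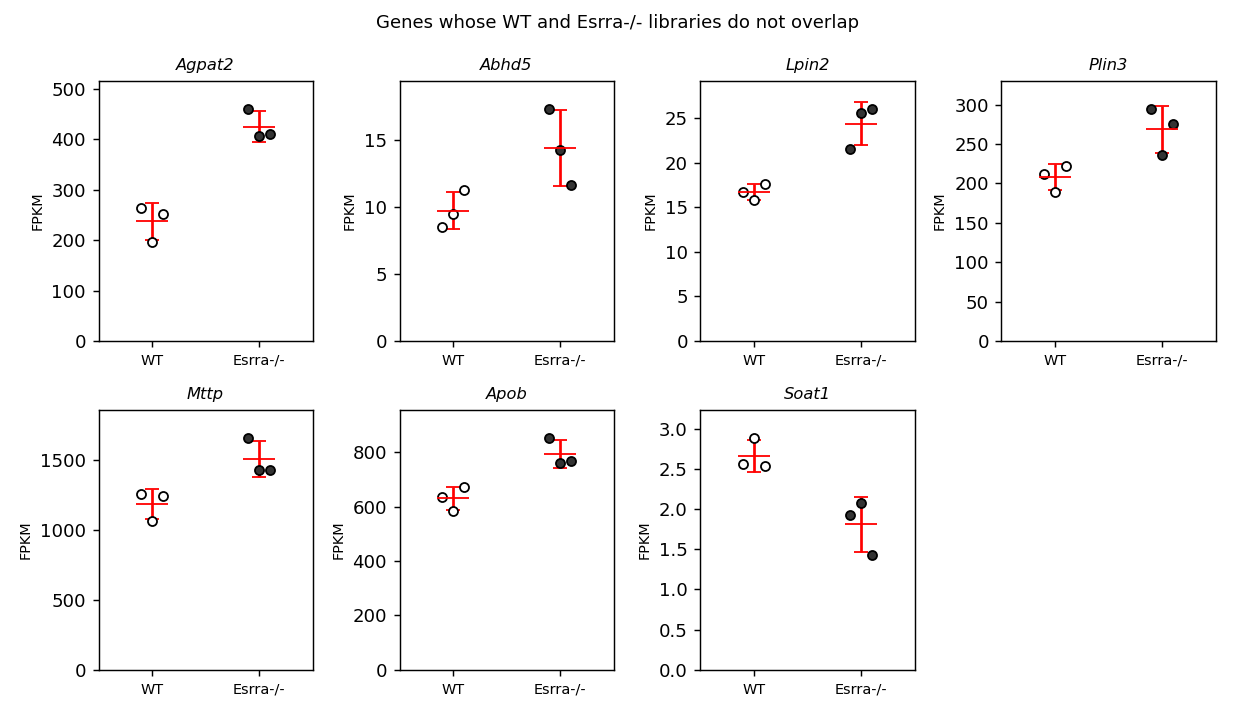
FPKM in each library of the 7 genes whose WT and *Esrra*-/- libraries did not overlap, 1 panel per gene with axes from 0, points for libraries, long lines for the means of 3 and bars for 1 SD. *Agpat2*, *Abhd5*, *Lpin2*, *Plin3*, *Mttp* and *Apob* lie higher in *Esrra*-/- and *Soat1* lies lower, and the gap of *Agpat2* lies between 263 and 406 FPKM.

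Sterol genes had differences of both signs. *Soat1* and *Soat2* encode the enzymes that esterify cholesterol, and *Soat2* is the enterocyte form. *Soat1* had 2.56, 2.89 and 2.53 FPKM in the WT mice and 1.93, 2.08 and 1.43 FPKM in *Esrra*-/-. It was the only gene of the set with every *Esrra*-/- library below every WT library. Its log2 fold change was -0.54 (SE 0.20, adjusted p = 0.414 by limma), under the fold limit, which it passed without *Esrra*-/- replicate 2. *Soat2* had 115, 96.6 and 124 FPKM in the WT mice and 134, 122 and 155 FPKM in *Esrra*-/-, with 1 WT library inside the *Esrra*-/- range.

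The ratio of *Soat2* to *Soat1* within a library, which does not depend on the scaling of the library, was 44.8, 33.4 and 48.9 in WT and 69.5, 58.8 and 109 in *Esrra*-/-. The difference of 0.87 on the log2 scale had p = 0.1 by a two-sided exact permutation test, the smallest value that 3 mice against 3 can give, and 0.6 after adjustment over the 6 ratios compared. The ratios of *Dgat1* to *Dgat2*, *Sar1b* to *Sar1a*, *Abcg5* to *Abcg8*, *Apoa4* to *Apoa1* and *Fabp2* to *Fabp1* overlapped between the genotypes, with exact permutation p-values of 0.4 to 1. The ratio of *Abcg5* to *Abcg8* was 2.03, 1.49 and 2.10 in WT and 1.72, 1.75 and 1.72 in *Esrra*-/-, so the pair with the shared upstream stretch stayed within 1.49 and 2.10 over the 6 libraries.

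*Scarb1*, the HDL receptor SR-BI, also found on the enterocyte brush border, varied most among the sterol genes. It had 5.97, 2.12 and 38.2 FPKM in the WT mice and 16.6, 10.6 and 36.3 FPKM in *Esrra*-/-. Replicate 3 was the highest in both genotypes, and the log2 fold change of 1.22 had a standard error of 0.97 (limma adjusted p = 0.684). That value was 0.29 without WT replicate 2 and 2.35 without WT replicate 3. *Scarb1* was called higher with the replicate block, without WT replicate 3 and without both libraries lacking Y-linked transcripts. *Npc1l1*, the cholesterol importer that is blocked by ezetimibe, had 185 ± 12.9 FPKM for WT and 208 ± 39.4 FPKM for *Esrra*-/- (SD, n = 3 each). *Abcg5* and *Abcg8* had log2 fold changes of 0.30 and 0.40, and *Abca1*, the basolateral cholesterol exporter, had -0.16 at means of 2.10 and 1.86 FPKM. *Scarb2*, a lysosomal membrane protein of the same family, had 0.10, and *Acat2*, which under this symbol is the cytosolic acetyl-CoA acetyltransferase and not the esterifying enzyme, had -0.20. The median over the 9 genes was 0.15, with 6 positive and none called in the main fit. It ran from 0.061 without *Esrra*-/- replicate 3 to 0.38 without WT replicate 3, and was 0.14 without both libraries lacking Y-linked transcripts.

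No fatty acid uptake or binding gene separated the genotypes. The median log2 fold change over the 7 genes was 0.13, with 4 positive, and it ran from -0.06 without WT replicate 1, through -0.03 without WT replicate 2, to 0.38 without WT replicate 3. Without both libraries lacking Y-linked transcripts it was 0.30, with 6 of 7 genes positive. *Cd36*, the fatty acid translocase, had 23.1, 34.0 and 41.5 FPKM in the WT mice and 33.9, 36.5 and 16.2 FPKM in *Esrra*-/-, with replicate 3 at the top of one genotype and at the bottom of the other. *Slc27a4*, the most abundant of the fatty acid transport proteins, had 332, 285 and 351 FPKM in the WT mice and 413, 329 and 477 FPKM in *Esrra*-/-. *Slc27a2* and *Slc27a1*, of the same family, had log2 fold changes of 0.18 and -0.11.

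*Fabp1* had 12132 ± 4024 FPKM for WT and 12948 ± 1576 FPKM for *Esrra*-/- (SD, n = 3 each), and *Fabp2* had 6870 ± 2885 and 7238 ± 1412 FPKM. For both, the difference between the means was smaller than the spread within a genotype. *Fabp6*, the ileal bile acid binding protein, had 0.356, 4.69 and 0.212 FPKM in the WT mice and 0.372, 0 and 0.647 FPKM in *Esrra*-/-. Its log2 fold change of -1.43 (SE 1.23) rested on WT replicate 2, without which the gene did not pass the filter. The value also rested on the 0 in *Esrra*-/- replicate 2, without which it was -0.57.

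The libraries also differed within each genotype. The median deviation of the members' log2 values from their mean over the 6 libraries was -0.16, -0.33 and 0.19 in WT and 0.15, -0.07 and 0.26 in *Esrra*-/-. Within each genotype replicate 3 was the highest and replicate 2 the lowest. For 20 villus enterocyte markers outside the set these medians were -0.18, -0.29 and 0.13 in WT and 0.12, -0.33 and 0.62 in *Esrra*-/-. For 16 crypt markers they were 0.32, 0.46 and 0.05 in WT and -0.27, 0.19 and -0.79 in *Esrra*-/-. In bulk epithelium, fewer cells of a type and less RNA per cell cannot be told apart.

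**Figure D4:**
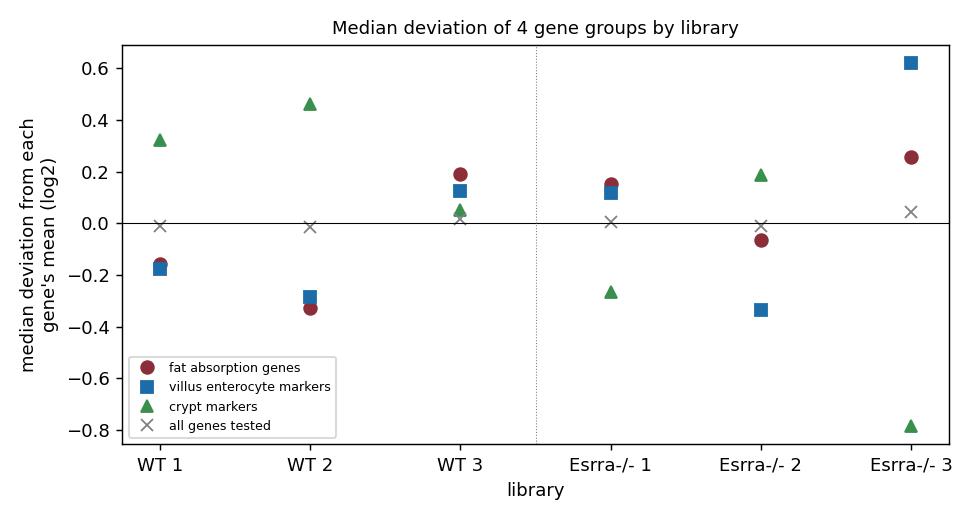
Median deviation of log2(FPKM + 0.1) from the mean over the 6 libraries, for the members tested, 20 villus enterocyte markers, 16 crypt markers and all genes tested (crosses), by library. The members run from -0.33 in WT replicate 2 to 0.26 in *Esrra*-/- replicate 3, and the crypt markers run from 0.46 to -0.79 in the same libraries.

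Between the genotypes, the crypt markers had a median log2 fold change of -0.58, with 2 of the 16 called lower (12.5%, against 3.28% of all genes tested) and none called higher. This median was -0.81 when *Esrra*-/- replicate 2 was left out, -0.36 when *Esrra*-/- replicate 3 was left out and -0.48 without both libraries lacking Y-linked transcripts. The called markers were *Smoc2*, a matricellular protein of crypt base cells, at -0.84, and *Cdk1*, the mitotic kinase, at -0.63. The summed crypt level was 305 to 464 FPKM in WT and 163 to 386 FPKM in *Esrra*-/-, and *Olfm4*, the most abundant crypt marker, had a mean of 126 FPKM. The villus markers had a median of 0.16, which was 0.013 and 0.43 when *Esrra*-/- replicate 3 or 2 was left out and 0.11 without both libraries lacking Y-linked transcripts, with *Ms4a10* called higher at 0.94, and *Anpep*, their most abundant gene, had a mean of 2953 FPKM. The summed villus level was 8995 to 12173 FPKM in WT and 8588 to 17264 FPKM in *Esrra*-/-. The part of these shifts in the members' differences was not tested.

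Markers of other cell types were low or did not pass the test, apart from *Tek*. Of 5 adipocyte markers none passed the filter, 2 were listed at 0 in all libraries, and their sum was 0.601 to 0.640 FPKM in WT and 0.870 to 1.49 FPKM in *Esrra*-/-, mostly *Retn* at a mean of 0.750 FPKM. Of 8 liver markers none passed, 3 were listed at 0, and the sum was 0.925 to 1.78 FPKM in WT and 0.700 to 1.31 FPKM in *Esrra*-/-, with *Apoh* highest at 0.571 FPKM. The summed adipocyte and liver markers were thus near 0 beside the abundant genes of the set. Of 11 pancreatic acinar markers 7 were listed at 0 and 1 was tested, *Cela1*, at a mean of 3.26 FPKM, with a sum of 2.47 to 3.65 FPKM in WT and 3.56 to 3.57 FPKM in *Esrra*-/-.

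Macrophage markers had 5 of 11 tested and none called, with a median of -0.01 (-0.19 without *Esrra*-/- replicate 1 and 0.20 without WT replicate 1), sums of 10.5 to 14.0 FPKM in WT and 11.1 to 12.5 FPKM in *Esrra*-/-, and *Cd14* highest at 3.14 FPKM. Lymphocyte markers had 10 of 14 tested and none called, with a median of 0.12 (-0.04 without WT replicate 1, 0.48 without *Esrra*-/- replicate 1 and -0.14 without both libraries lacking Y-linked transcripts), sums of 142 to 247 FPKM in WT and 133 to 271 FPKM in *Esrra*-/-, and *Gzma* highest at 98.2 FPKM. Of 10 endothelial markers 2 were tested and 1, *Tek*, an angiopoietin receptor, was called higher, from 0.129, 1.24 and 0.139 FPKM in WT to 1.23, 2.20 and 1.48 FPKM in *Esrra*-/-, and *Lyve1* was highest at 2.65 FPKM. *Tek* passed the filter only through the *Esrra*-/- libraries, and its genotypes overlapped. The endothelial sum, mostly *Tek* and *Lyve1*, was 2.66 to 4.79 FPKM in WT and 4.12 to 6.17 FPKM in *Esrra*-/-, while 5 of the 8 markers not tested had a lower mean in *Esrra*-/-. Of 11 mesenchymal markers 1 was tested, *Vim*, at 2.69 FPKM and a log2 fold change of -0.27. The value for *Vim* was -0.55 without *Esrra*-/- replicate 2 and -0.05 without WT replicate 2. The other 10, none above 1.66 FPKM in any library, all had a higher mean in *Esrra*-/-, and for *Acta2* and *Myh11* the libraries did not overlap. The mesenchymal list had a sum of 2.64 to 4.60 FPKM in WT and 2.71 to 8.03 FPKM in *Esrra*-/-. Position along the intestine was read from 3 distal markers tested, with a median of 0.38, *Ostb* highest at 384 FPKM and *Cubn* at -1.37, and from 6 proximal markers tested, with a median of -0.11 and *Rbp2* highest at 13200 FPKM. With *Esrra*-/- replicate 3 or 2 left out, the distal median was -0.02 or 0.69 and the proximal median -0.31 or 0.13. None of these positional markers was called.

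Genes of the pathway outside the set were examined in the same way. Of 87 further genes of fat absorption with a row, 67 were tested, with a median log2 fold change of 0.15, or 0.099 without *Esrra*-/- replicate 3 and 0.11 without both libraries lacking Y-linked transcripts. Of these, 2 were called lower (2.99%, against 3.28% of all genes tested) and none higher, so the calls were near the background, and both are named by rule. *Clps*, the cofactor of pancreatic lipase, had 175, 304 and 170 FPKM in the WT mice and 103, 155 and 43.3 FPKM in *Esrra*-/-, with no overlap and a log2 fold change of -1.24 (SE 0.47, adjusted p = 0.415 by limma). *Fabp5*, another fatty acid binding protein, was called at -0.68, from 5.18 ± 1.73 to 3.08 ± 0.484 FPKM (SD, n = 3 each), although its libraries overlapped. Of 28 PPARα-responsive genes tested outside the set none was called, 24 were positive and the median was 0.13. It was 0.066 without WT replicate 2, 0.27 without WT replicate 3 and 0.34 without both libraries lacking Y-linked transcripts. Of 6 LXR-responsive genes tested none was called and the median was 0.33, or 0.54 without both libraries lacking Y-linked transcripts.

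Many genes of the set were higher in replicate 3 than in replicates 1 and 2. Replicate 3 was the highest library within both genotypes for 25 of the 47 genes (53.2%), against 28.1% of all genes tested. A limma coefficient for the 2 libraries without Y-linked transcripts, with genotype in the model, was called higher for 11 genes (23.4%), against 5.32% of all genes tested, and lower for 2 genes (4.26%), against 4.68%. Its median was 0.27 in the set and 0.03 over all genes tested. None of the 47 had an adjusted p under 0.05, a level that 15 genes reached. Under quantile normalization, which gives the libraries the same distribution, 2 genes were called higher in place of 11 (4.26%, against 3.47% of all genes tested), 2 were called lower (4.26%, against 2.92%), and the median was 0.02. Cell type markers moved with these libraries. In the model without quantile normalization 6 of the 20 villus markers were called higher, with a median of 0.50, and 7 of the 16 crypt markers were called lower, with a median of -0.52. Their part in the result was not tested.

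The genes called higher in these 2 libraries came from several steps. Under both scalings *Scarb1* (2.41, standard error 0.57, limma adjusted p = 0.072) and *Abca1* (1.77, standard error 0.42, limma adjusted p = 0.0718) were called higher, and both move cholesterol. *Gpam* (-0.92) and *Lpin1* (-1.08), of the glycerol phosphate route, were called lower under both. The other genes called higher without quantile normalization were *Abcg5* at 0.78, *Abcg8* at 0.65, *Agpat1* at 0.62, *Cideb* at 0.66, *Pnpla2* at 0.72, *Apobec1* at 0.73, *Apoa1* at 0.71, *Apoc3* at 0.62 and *Fabp2* at 0.64. *Agpat2*, called between the genotypes, had a coefficient of 0.04 here. In each genotype the library that lacked Y-linked transcripts was also that of replicate 3 and was a single mouse. These 2 libraries also had the highest summed FPKM, 999902 in WT and 901171 in *Esrra*-/-, against 707094 to 818406 in the others. Sex, replicate number, the mouse and the scaling of the library cannot be told apart.

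Without these 2 libraries, with 2 mice against 2, 6 of 47 genes were called higher in *Esrra*-/- (12.8%), against 1.99% of all genes tested, and none lower, against 3.24%. They were *Scarb1* at 1.87, *Agpat2* at 0.93, *Plin2* at 0.90, *Abhd5* at 0.80, *Mgll* at 0.77 and *Lipa* at 0.70, with limma adjusted p-values of 0.243 to 0.397. The 4 genes other than *Scarb1* and *Agpat2* act at the lipid droplet or in lipolysis, and the median of that group was 0.43 in place of 0.15. The median over the 47 genes was 0.30. An interaction of genotype with the absence of Y-linked transcripts, with 1 mouse of each genotype on one side, had an unadjusted p under 0.05 for 6 genes (12.8%), against 5.29% of all genes tested, and no gene had an adjusted p under 0.05.

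**Figure D5:**
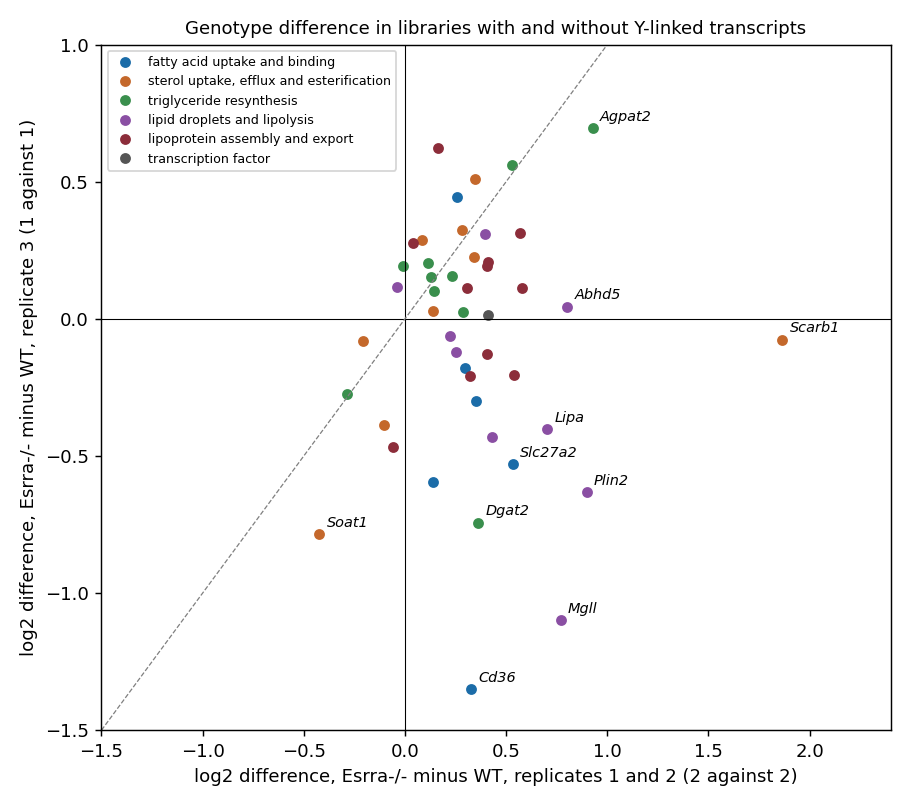
Log2 difference, *Esrra*-/- minus WT, between the libraries of replicates 1 and 2 (x axis, 2 mice against 2) and between those of replicate 3, which lacked Y-linked transcripts (y axis, 1 against 1), for 46 genes, with *Fabp6* off the scale and the dashed line marking equal differences. *Cd36*, *Mgll*, *Plin2*, *Slc27a2* and *Lipa* are positive on the x axis and negative on the y axis, *Abhd5* is at 0.80 and 0.04, and *Agpat2* is positive on both, at 0.93 and 0.70.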

How the data were processed

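Epithelial RNA of 3 WT and 3 *Esrra*-/- mice was sequenced with paired ends. The submitters' processing notes list FastQC (0.11.3), kallisto (2.1.0), DESeq2 (2.2.1) and mm9, and the annotation is not given in the sources used here. The authors deposited FPKM values of 22611 genes per library and a table of their own comparison (fold changes and p-values), which was not used. Depth is unknown from FPKM. Ratios of low values gave scaling factors by the authors of 0.827 to 1.02 relative to WT replicate 1, lowest in replicate 3 (0.833 in WT and 0.827 in *Esrra*-/-). A test on counts was therefore not run, and precision is given by the spread between mice.

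Values were analysed as log2(FPKM + 0.1) for genes with a mean FPKM above 1, with lmFit and eBayes with trend (limma 3.58.1, R 4.3.3), no covariate and Benjamini-Hochberg adjustment over all genes tested, a design checked on simulated data. Ratios within libraries were compared by two-sided exact permutation tests. All 48 genes were named by rule, together with *Esrra*, the called genes of the other lists (at most 4 each way) and the most abundant marker of each list. *Cubn*, *Acta2* and *Myh11* were named after their values were seen. The members and lists were chosen with earlier results of these data known. The listed symbols *Mia3*, *Vamp7*, *Clca4a* and *Amy2b* had no row, and 25 symbols of the table had been turned into dates. The models for Y-linked transcripts were chosen after the values were seen. Coordinates are on mm9 (GENCODE M1) unless GRCm38.p6 is named. Alternatives were another pseudocount, filters, scalings, thresholds, a model without trend, covariates and each library left out.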

Additional observations from a re-analysis of the deposited data

Results flagged for a closer look

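The 6 genes flagged here are those counted above by the limma interaction term of genotype with the absence of Y-linked transcripts. They made up 12.8% of the 47 genes, against 5.29% of all genes tested, and none held after adjustment over all genes. The term is the log2 fold change of *Esrra*-/- over WT between the replicate 3 libraries minus that between the libraries of replicates 1 and 2. It rests on 1 mouse of each genotype without Y-linked transcripts and 2 residual degrees of freedom, and assumes that these lone mice vary like the others.

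The difference was -1.87 for *Mgll*, the monoacylglycerol lipase, from 0.77 with Y-linked transcripts to -1.10 without, at a mean of 2.42 FPKM. It was -1.68 for *Cd36*, the fatty acid translocase, from 0.33 to -1.35. For *Plin2*, the droplet coat protein, it was -1.53, from 0.90 to -0.63. *Lipa*, the lysosomal acid lipase, had -1.10, from 0.70 to -0.40, and *Slc27a2*, a fatty acid transport protein, had -1.06, from 0.53 to -0.53. In *Abhd5*, the lipase coactivator, it was -0.76, from 0.80 to 0.04, without a change of sign. The number of flagged genes changed when single libraries were left out, and the share over all genes in those fits is not given here. The cause was not tested, and sex, replicate number and the individual mouse cannot be told apart.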

How the results depend on the processing

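The log2 fold changes and counts were recomputed under 15 alternatives and 2 other thresholds. No value reversed a call, and 962 of 999 values kept their direction and side of the threshold or moved by less than the spread. Few calls could be reversed, since 1 gene of the set was called. Genes not called could count as kept although their sign turned, as for *Cd36* (-0.47 to 0.33) and *Dgat2* (-0.46 to 0.49). Beside the 1 gene called higher, the count was 2 with the replicate block (*Agpat2* and *Scarb1*), where 192 of 10596 genes were called higher. It was 0 at an adjusted p under 0.05, and 3 with no fold limit, where 10.8% of all genes passed in either direction. Without both libraries lacking Y-linked transcripts it was 6, where 212 of 10665 genes were called higher. With each library left out it was 1 to 4. It was 4 without WT replicate 3 (*Abhd5*, *Agpat2*, *Apoc3* and *Scarb1*), where 214 of 10612 genes were called higher. It was 2 without *Esrra*-/- replicate 1 (with *Lpin2*), 2 (with *Abcg8*) or 3 (with *Abhd5*). In those fits 143 of 10599, 206 of 10560 and 169 of 10654 genes were called higher. The count called lower was 1 with no fold limit (*Soat1*) and 0 to 1 with each library left out. It was 1 without *Esrra*-/- replicate 2, where 533 of 10560 genes were called lower. The median of the set was 0.080 to 0.38 with each library left out, and that of the droplet genes was 0.43 without both libraries lacking Y-linked transcripts. In these 2 libraries the count called higher was 2 under quantile normalization and 6 to 16 with each library left out, lowest without WT replicate 3. The count called lower was 1 with a pseudocount of 1, 0 with FPKM above 1 in all 6 libraries, and 1 to 5 with each library left out, 5 without WT replicate 3 and 1 without *Esrra*-/- replicate 3. For these counts in the 2 libraries, the share over all genes with each library left out is not given here. Whether they exceed the background of those fits therefore cannot be told. Without a replicate 3 library they rest on 1 mouse lacking Y-linked transcripts. The causes of the changes in count were not tested, apart from the genes that the stricter filter removed.

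Over all genes, the 348 called lower and 143 called higher became 441 and 192 with the replicate block, 251 and 112 with a pseudocount of 1, 528 and 277 with no filter on low values, and 533 and 206 without *Esrra*-/- replicate 2. Deviations of libraries with the same number correlated at 0.01, 0.26 and 0.38, and those of libraries with different numbers at -0.37 to 0.18. The labels state no pairs, so the numbers were not taken as pairs in the main fit, and the replicate block is given as an alternative. The depth of each library is unknown from FPKM values, and what it limits was not tested.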
